A study of Mus musculus with 6 samples.

Results

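The genes described here encode the proteasome, chosen by name as every gene symbol that begins with Psm, a letter from a to g and a digit, with the pseudogenes marked -ps left out. The rule found 50 of the 55376 genes in the tables, and 4 names with -ps were left out. RNA immunoprecipitation sequencing (RIP-seq) was carried out on freshly isolated muscle stem cells (satellite cells, fiSCs) sorted from C57BL/6 mice aged 3 months. It recovers the RNAs that come down on beads with an antibody, and there were 3 groups of 2 libraries: RNA precipitated with an anti-CPEB1 antibody (CPEB1 IP), RNA precipitated with control IgG (IgG), and input RNA taken without precipitation. No animal carried a mutation or a treatment, and the study names 2 independent experiments. The labels do not say whether the cells of 1 library were pooled from several mice, so the p-values below measure the spread between these libraries only.

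The proteasome is the protease that destroys proteins tagged with ubiquitin. Its barrel-shaped core has outer rings of alpha subunits (Psma), which gate the entry, and inner rings of beta subunits (Psmb), some of which cut peptide bonds. A regulatory particle sits on the core: a base with a ring of ATPases (Psmc) unfolds the substrate, and a lid (most of Psmd) removes ubiquitin from it. Other members of the list are activators that can replace the regulatory particle (Psme), an inhibitor (Psmf1) and assembly chaperones (Psmg, Psmd5, Psmd9 and Psmd10). In muscle the pathway is best known for breaking down contractile proteins during wasting. CPEB1 binds cytoplasmic polyadenylation elements (CPEs), short U-rich motifs in 3′ UTRs, and can repress or activate translation by setting the length of the poly(A) tail. The comparison of CPEB1 IP with IgG asks which transcripts associate with CPEB1 in fiSCs, and input gives the level from which both precipitates were drawn.

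By role, the 50 genes comprised 8 of the alpha ring, 7 constitutive subunits of the beta ring, 4 inducible or thymic beta subunits, 6 ATPases, 3 other subunits of the base, 8 of the lid, 3 base assembly chaperones, 5 activators, 1 inhibitor and 4 core assembly chaperones. The last gene, Psmc3ip, entered by its symbol only: it is a meiotic recombination factor and no subunit. Psme2b is a copy of Psme2, identical to it over 99.37% of 794 aligned bases, so reads of the pair cannot be told apart with certainty. Psma3 and Psmb3 each had 7 other genes with matching exon sequence, and Psma5 matched Gm8394 over 952 bases at 98.6%. Reads of these genes could be split or lost in counting.

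The libraries held between 1284716 and 4941653 counts on genes, and IgG libraries were the shallowest. Counts are relative within a library, so they do not show how much RNA each precipitate held. The genes of the list took 0.590% and 0.627% of these counts in input, 0.553% and 0.557% in IgG, and 0.720% and 0.769% in CPEB1 IP. The 3 groups did not overlap in this share, with CPEB1 IP highest and IgG lowest. All 9 satellite cell markers examined, Pax7 and Myod1 among them, were above 1 FPKM in every library. Of 15 markers of other muscle-resident cells, the mural cell genes Acta2 and Rgs5 reached 133 to 159 and 38.2 to 56.7 FPKM in input. The immune genes differed there. Ptprc was at 0 and 0.013 FPKM and Cd3e at 0 and 0.118, while Cd68 was at 12.4 and 6.13 and Lyz2 at 5.12 and 5.86. These 15 markers added up to 853 and 972 CPM in input, 674 and 680 in IgG and 876 and 882 in CPEB1 IP, and 9 or 10 of them were above 1 FPKM in each library. Acta2 and Rgs5 made up most of the FPKM sum in input, so this sum hides the others. The part of such cells in the values below was not tested, and in bulk RNA fewer cells of a type and less RNA per cell cannot be told apart.

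CPEs were searched on the transcript strand as TTTTAT and TTTTAAT in the annotated 3′ UTRs of protein-coding transcripts (GENCODE M21, mm10). Of the 50 genes, 22 (44.0%) held at least 1, against 66.9% of the 10886 genes tested for CPEB1 IP against IgG that have a 3′ UTR. Proteasome transcripts have short 3′ UTRs: the median of the longest annotated one was 295 nt, against 1285 nt over those tested genes. Among genes whose 3′ UTR was 119 to 820 nt long (the quartiles of the list), 39.1% of the 3402 genes tested and 9 of 24 genes of the list (37.5%) held a CPE. The alpha ring had most, with 6 of 8 genes. The constitutive beta ring had 2 of 7, the ATPases 1 of 6 and the lid 3 of 8.

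The sites below show what such matches look like in transcripts from each part of the particle. Each line is in the sense of the transcript, 5′ to 3′, and capitals mark the CPE. Psma1 and Psma5 are shown as alpha subunits that were higher in CPEB1 IP than in IgG under every setting. Psmb3 is shown because its 3′ UTR has only 59 nt. Psmc6 is the one ATPase with a match. Psmd7 is a lid gene with a large log2 fold change in CPEB1 IP against IgG, 0.72. Psmd11, also of the lid, has the largest of the list against input, 0.86, but 0.40 against IgG. Psmg3 has the lowest change of the list against IgG.
Psma1, chr7:114264661-114264686 (minus strand): ataccaatgtTTTTATatgaagaaaa
Psma5, chr3:108279912-108279937 (plus strand): gtgtgtgtttTTTTATgaagtctgta
Psmb3, chr11:97713467-97713493 (plus strand): ttgtttttctTTTTAATaaaattgcct
Psmc6, chr14:45349000-45349025 (plus strand): ttatgacttaTTTTATattttgtttt
Psmc6, chr14:45349209-45349234 (plus strand): gaatgtcttcTTTTATagatcataga
Psmd7, chr8:107580855-107580881 (minus strand): ggtgtagcttTTTTAATtagtaaatta
Psmd7, chr8:107580611-107580636 (minus strand): gcactcttccTTTTATccttgaaagg
Psmd11, chr11:80472101-80472126 (plus strand): agcaacgactTTTTATtctgtttgta
Psmg3, chr5:139823622-139823647 (minus strand): gggaagatttTTTTATtaaaaataaa
In Psma1, Psma5 and Psmb3 the motif lay 65, 47 and 17 bases before the end of the 3′ UTR. A match is a string of letters only, and binding of CPEB1 at these positions was not measured.

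In input, subunits of the core and of the regulatory particle had the highest levels per length, and the factors that assemble or regulate them mostly lay lower. FPKM, counts scaled to the summed exon length and to a library total, was used to compare genes. The median over the constitutive beta ring was 84.3 FPKM, over the non-ATPase base subunits 62.4, over the ATPases 55.8, over the alpha ring 42.7 and over the lid 32.9. The activators had a median of 19.5, the core assembly chaperones 13.3, the base assembly chaperones 6.01 and the inducible or thymic beta subunits 3.38 FPKM. No class was compared with another by a test. Genes of 1 ring varied, although each subunit of a ring is built in at a fixed ratio: the constitutive beta ring ran from 18.8 FPKM for Psmb7 to 116 for Psmb2. Exon length as annotated enters this value, and was 3421 bases for Psmb7, part of it shared with Nek6, against 1204 bases for Psmb2. Psmb2 was at 93.1 and 138 FPKM in the input libraries, Psmb6 at 107 and 111, and Psmb4 at 90.8 and 109. These were the most abundant members, and their order is not separated by the spread between the libraries.

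The catalytic subunits come in pairs, since Psmb8, Psmb9 and Psmb10 replace Psmb5, Psmb6 and Psmb7 in the immunoproteasome that interferon induces. In input the constitutive member was the more abundant of each pair in both libraries. Psmb5 (chymotrypsin-like activity) was at 70.3 and 98.3 FPKM, and Psmb8 at 5.66 and 5.13. Psmb6 (caspase-like activity) was at 107 and 111 FPKM, and Psmb9 at 1.37 and 1.38. In FPKM the trypsin-like pair was closer, with Psmb7 at 15.9 and 21.8 and Psmb10 at 8.54 and 7.35. Exon length enters this: it was 3421 bases for Psmb7 and 1705 for Psmb10, but 899 for Psmb5 and 3381 for Psmb8. In CPM, which leaves exon length out, the trypsin-like pair was not the closer one. Psmb7 was at 76.7 and 97.3 CPM and Psmb10 at 20.6 and 16.4, Psmb5 at 89.3 and 116 and Psmb8 at 27.0 and 22.7. Psma8, an alpha subunit of the testis, had no count in input and at most 4 in any library. Psmb11, the thymic subunit, had at most 9. A library with 0 counts still allows up to 3, so transcripts below that limit could not be seen. The order of the genes by level hardly differed between groups: across the 46 genes tested, Spearman's rho of mean log2 FPKM was 0.965 for input and IgG, 0.977 for input and CPEB1 IP, and 0.987 for IgG and CPEB1 IP. These values are across genes, which share libraries and are not independent.

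**Figure D1:**
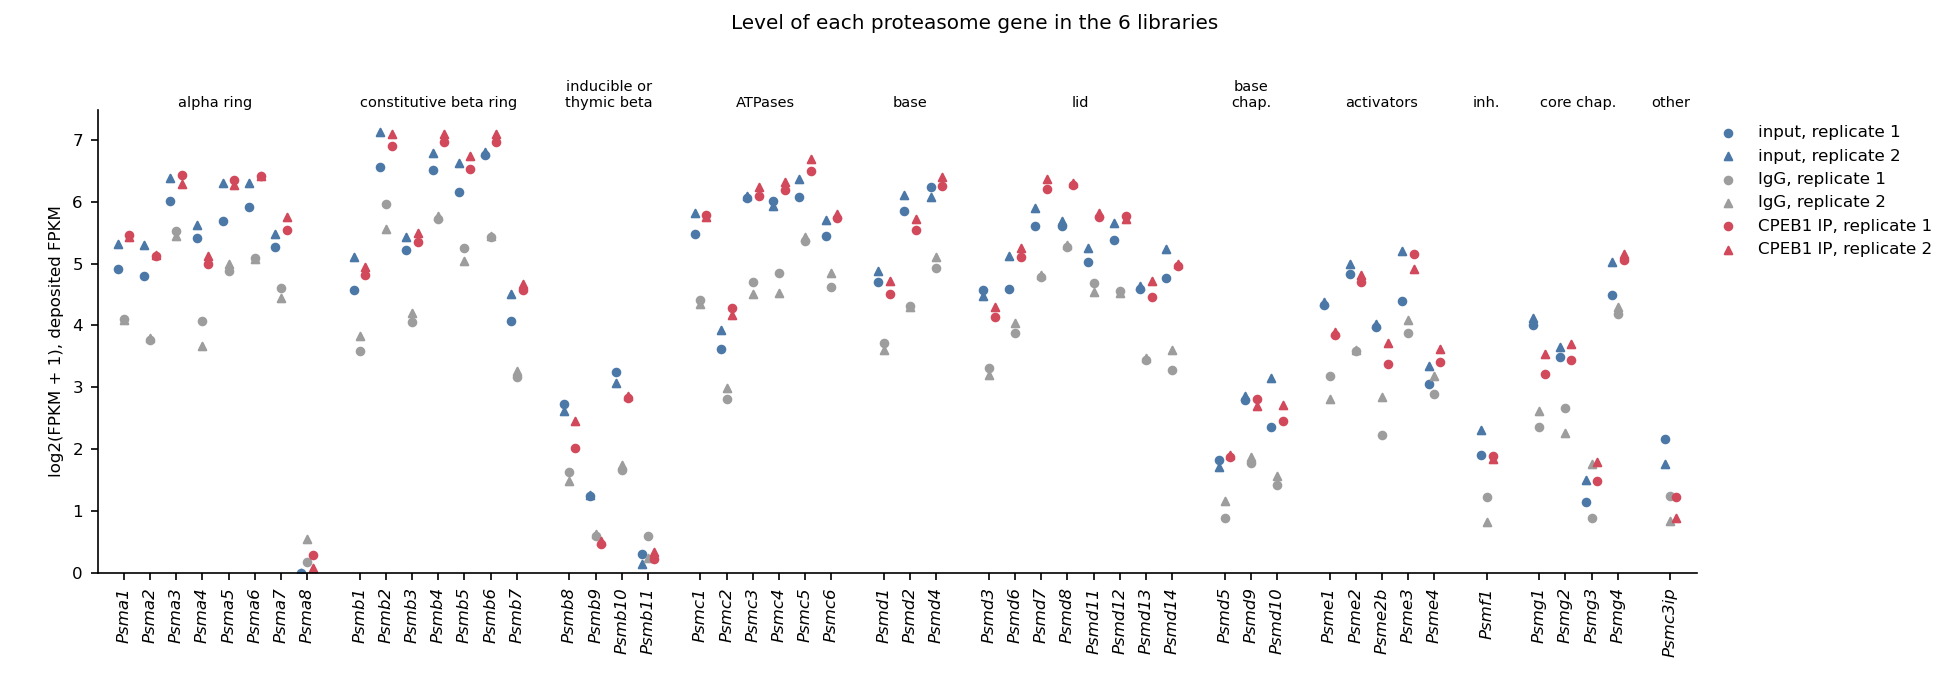
Level of the 50 proteasome genes in the 6 libraries, as log2 of the deposited FPKM plus 1 on the y axis, with genes on the x axis grouped by role (chap., assembly chaperones; inh., inhibitor; other, Psmc3ip). Circles are replicate 1 and triangles replicate 2; the IgG libraries (grey) lie below both other groups for most genes on this scale, Psmb2, Psmb4 and Psmb6 are the most abundant in input, and Psma8 and Psmb11 are near 0.

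Genes of the core and of the regulatory particle were higher in CPEB1 IP than in IgG, while none of the chaperones, activators or inducible subunits passed the test. Of the 46 genes tested, 26 were higher (56.5%) and 0 lower at a threshold of 0.05 on p-values that edgeR's quasi-likelihood model gave, adjusted after Benjamini and Hochberg over all 12124 genes tested. Over all those genes 14.7% were higher and 18.7% lower. The log2 fold change was above 0 for 44 of the 46, with a median of 0.46, against -0.01 over all genes. At an unadjusted p under 0.05 there were 29 higher and 0 lower, against 19.1% and 23.2% of all genes tested. DESeq2 on all genes called 34 of 50 higher and 0 lower, and 21.6% of the genes tested by edgeR higher and 6.0% lower, but its scaling put the median of those genes at 0.27. DESeq2 after the low count filter called 19 of 46 higher and 0 lower, against 7.05% and 7.98% of all genes. The CPM of the groups did not overlap for 41 of the 46, against 66.7% of all genes tested. Psma8, Psmb9, Psmb11 and Psmc3ip had too few counts to be tested.

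The changes were modest, from a log2 fold change of -0.39 to 0.82. Level moved with the call: of the 1801 other genes tested with an input level in the middle range of the list (16.5 to 59.7 FPKM), 43.3% were higher in CPEB1 IP and 4.33% lower, with a median log2 fold change of 0.33. Of the 22 genes of the list in that range, 14 were higher, with a median of 0.43. The part of abundance in the calls was not tested further. In simulated counts for this comparison the test found 14% of 200 genes with a true log2 difference of 0.5 and 52% of those with 1, over all 12124 genes, so a gene that was not called may still differ by such a size. The 200 were drawn at random from all 12124 genes whatever their level, so these shares need not hold for the abundant genes of the list.

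In the alpha ring 6 of 7 genes tested were higher, with a median log2 fold change of 0.55. Psma2 had the largest change, at 115 and 120 CPM (counts scaled to the TMM-normalized library size) in IgG and 189 and 185 in CPEB1 IP, a log2 fold change of 0.61 ± 0.12 (SE, n = 2 libraries per group, edgeR adjusted p = 0.00049). Psma3 was the exception and the most abundant of the ring in input, at 434 and 420 CPM in IgG and 510 and 441 in CPEB1 IP. Its log2 fold change of 0.09 ± 0.10 did not pass (edgeR adjusted p = 0.54), and it is one of the genes with 7 copies. All 7 constitutive beta subunits were higher. Psmb6, chr11:70525367-70527858 on the plus strand, stood at 194 and 202 CPM in IgG and 354 and 375 in CPEB1 IP, with the largest change of all members (log2 fold change 0.82 ± 0.10, edgeR adjusted p = 8.0e-06). Psmb5 and Psmb7, the other constitutive catalytic subunits, changed by 0.72 ± 0.14 and 0.71 ± 0.14, and the lowest of the ring was Psmb1 at 0.43 ± 0.12. The groups did not overlap for any of these genes.

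Of the inducible partners, Psmb8 was at 17.5 and 15.3 CPM in IgG and 15.8 and 22.3 in CPEB1 IP, so the groups overlapped (log2 fold change 0.19 ± 0.32, edgeR adjusted p = 0.69). Psmb10 was at 9.11 and 10.2 CPM in IgG and at 15.8 and 15.7 in CPEB1 IP, a log2 fold change of 0.64 ± 0.37 that did not pass (edgeR adjusted p = 0.20). Its counts of 12 and 14 in IgG leave an error wide enough to hold the changes of Psmb5 to Psmb7. Psmb9 had 6 and 7 counts in IgG and 5 and 11 in CPEB1 IP, and was not tested.

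Among the ATPases 5 of 6 were higher, with the largest class median, 0.63. Psmc4 was at 148 and 120 CPM in IgG and 238 and 251 in CPEB1 IP (log2 fold change 0.80 ± 0.12, edgeR adjusted p = 4.5e-05), and Psmc3 was close to it at 0.79 ± 0.11. Psmc6 was at 203 and 245 CPM in IgG and 279 and 282 in CPEB1 IP, a log2 fold change of 0.26 ± 0.11 (edgeR adjusted p = 0.070). It was the ATPase that did not pass and also the one with CPEs. Of the other base subunits, the scaffold Psmd2 rose by 0.57 ± 0.10 and the ubiquitin receptor Psmd4 by 0.54 ± 0.10, while the scaffold Psmd1 had 0.22 ± 0.11 (edgeR adjusted p = 0.12).

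The lid had 6 of 8 genes higher, with a median of 0.43. Psmd14, the subunit that cuts ubiquitin off the substrate, was at 60.8 and 80.1 CPM in IgG and 130 and 127 in CPEB1 IP (log2 fold change 0.80 ± 0.15, edgeR adjusted p = 0.00033). Psmd7, its structural partner, was at 148 and 155 CPM in IgG and 251 and 271 in CPEB1 IP (0.72 ± 0.11, edgeR adjusted p = 5.9e-05). Psmd8 had the smallest change, at 284 and 298 CPM in IgG and 355 and 351 in CPEB1 IP (0.21 ± 0.10, edgeR adjusted p = 0.096). Psmd3 was the other lid gene that did not pass, at 0.25 ± 0.13.

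None of the 3 base assembly chaperones, 5 activators and 4 core assembly chaperones passed the test, nor did Psmf1. Psme2 missed the threshold by little, with a log2 fold change of 0.43 ± 0.17 (edgeR adjusted p = 0.05005). At an unadjusted p under 0.05 only Psme2 of these 13 was higher, and DESeq2 without a low count filter called 1 base assembly chaperone and 2 activators higher. Most were measured with less precision than the core: the median SE was 0.12 in the alpha ring and in the constitutive beta ring, 0.17 in the activators, 0.28 in the base assembly chaperones and 0.30 in the core assembly chaperones. Psmd10 (gankyrin) had a log2 fold change of 0.67 ± 0.43 and Psmf1 of 0.54 ± 0.30, as large as in the core but with errors that reach far lower. Psmg3 had the lowest value of the list, -0.39 ± 0.44, with 8 and 24 counts in its IgG libraries. Psme4, the large nuclear activator, was different in its precision: it stood at 133 and 171 CPM in IgG and 123 and 139 in CPEB1 IP, and its log2 fold change was -0.27 ± 0.13 (edgeR adjusted p = 0.12). Without IgG replicate 1 it was -0.39 (edgeR adjusted p = 0.040), the one gene of the list then lower. With each library left out in turn, its log2 fold change ran from -0.39 to -0.03. The sign depended on the scaling: by the FPKM library totals, the value was 0.54. That scaling moved the median of all genes from -0.01 to 0.80, so Psme4 lay below this median on both scales. Psme2 and its copy Psme2b had 0.43 ± 0.17 and 0.33 ± 0.39. The difference between classes was not tested.

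**Figure D2:**
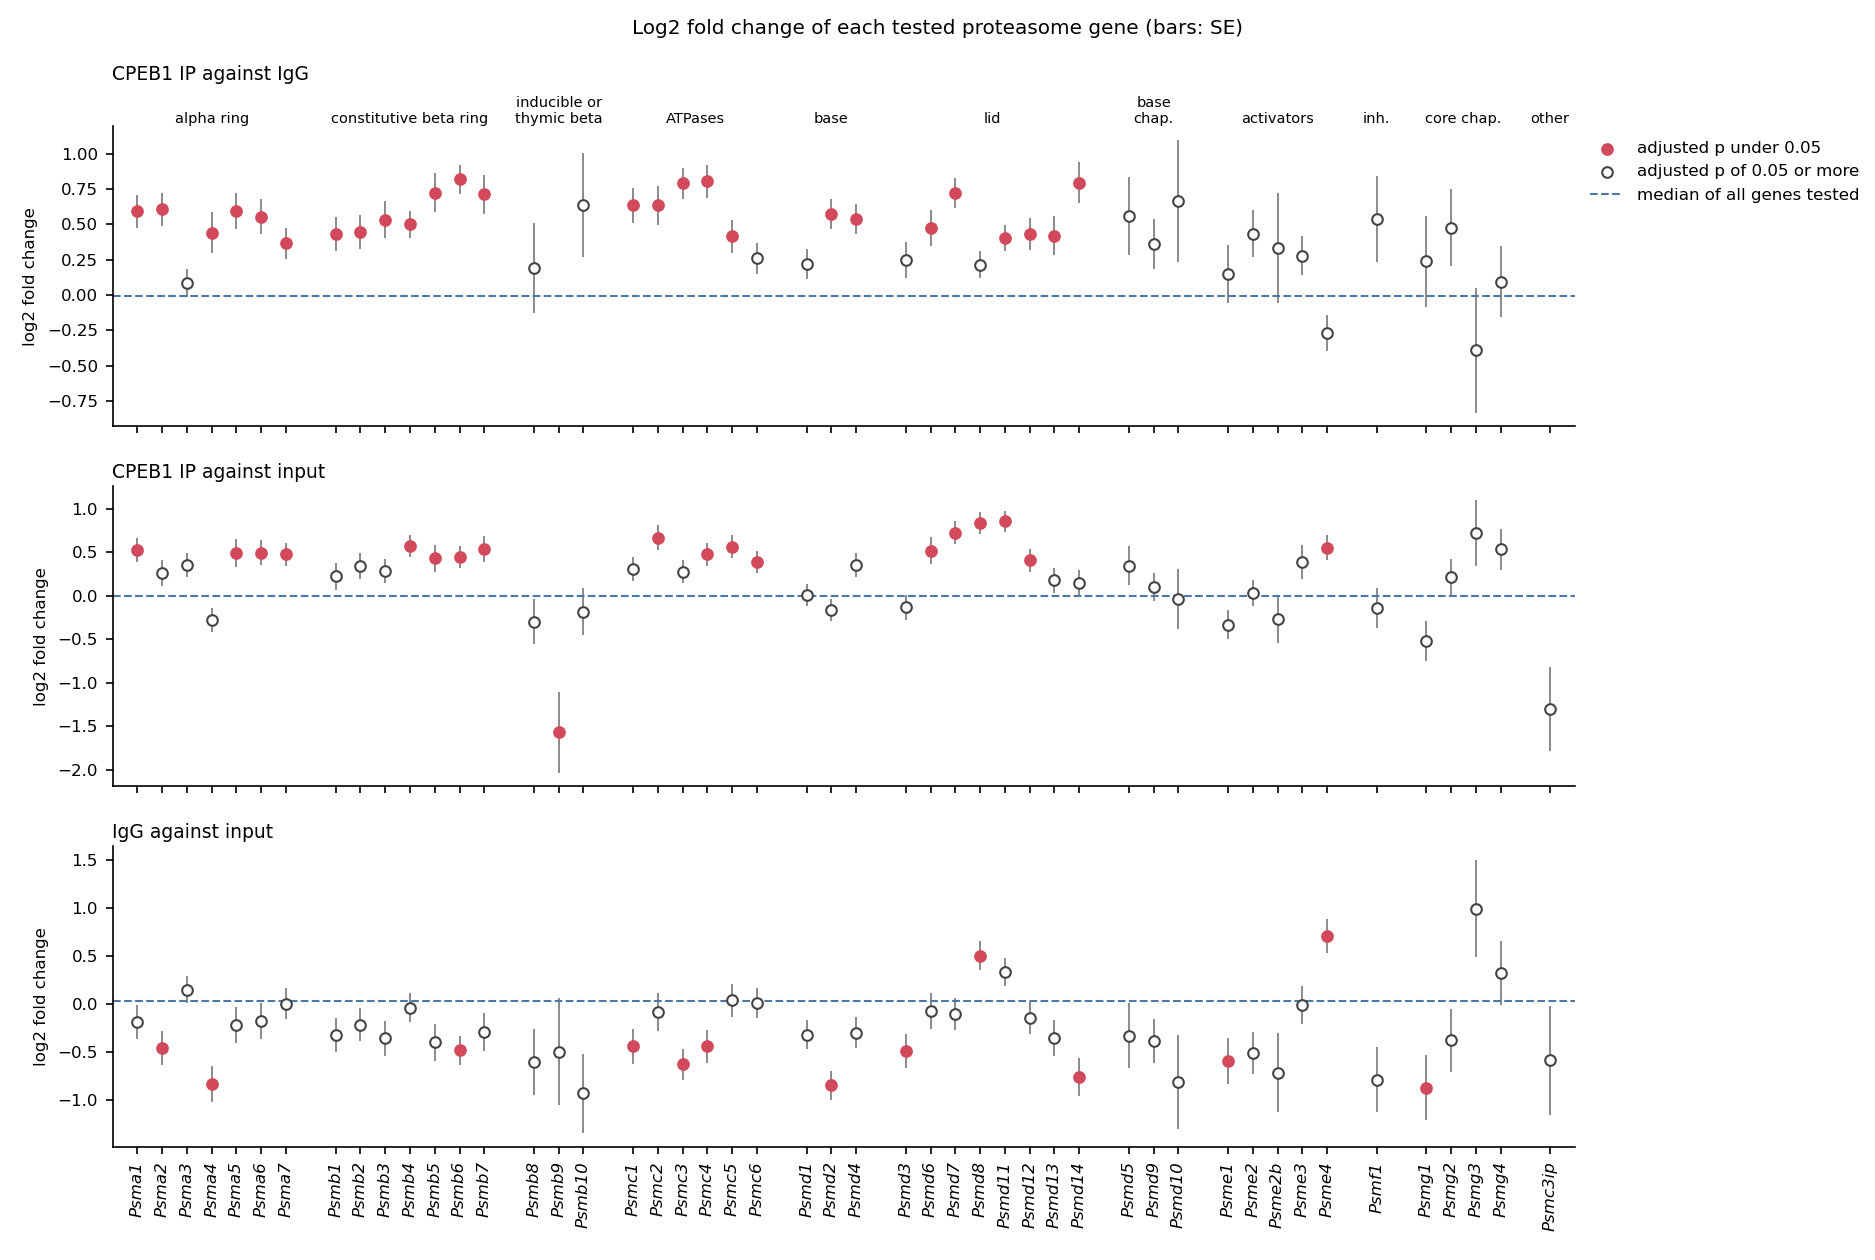
Log2 fold change of each tested proteasome gene for CPEB1 IP against IgG (top), CPEB1 IP against input (middle) and IgG against input (bottom), with SE bars and genes on the x axis grouped by role (chap., assembly chaperones; inh., inhibitor; other, Psmc3ip). Filled points have an adjusted p under 0.05 and the dashed line is the median of all genes tested; 26 points are filled and above the line in the top panel, and in the bottom panel 11 are filled and below it.

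Leaving out 1 library mattered to part of this list only. The number of genes higher was 25 without CPEB1 IP replicate 1, 18 without CPEB1 IP replicate 2, 26 without IgG replicate 1 and 24 without IgG replicate 2. Of the 26 genes, 18 were called under each of these and under every other setting tried: Psma1, Psma2, Psma5, Psma6, Psmb4 to Psmb7, Psmc1 to Psmc4, Psmd2, Psmd4, Psmd7, Psmd11, Psmd12 and Psmd14. The other 8 were all lost without CPEB1 IP replicate 2, among them Psma4, Psmb1, Psmb2 and Psmc5 at adjusted p of 0.167, 0.0706, 0.0757 and 0.122 from edgeR. Leaving out CPEB1 IP replicate 1 (0.0541) or IgG replicate 2 (0.175) also lost Psma4, Psmb1 without IgG replicate 1 (0.0582) and Psmb2 without IgG replicate 2 (0.0878).

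Summed over each class, most classes were highest in CPEB1 IP, with no test made. The 6 ATPases added up to 823 and 842 CPM in IgG, 978 and 1018 in input, and 1278 and 1303 in CPEB1 IP. The lid added up to 1316 and 1337 CPM in IgG, 1261 and 1361 in input, and 1845 and 1885 in CPEB1 IP. For both, the CPEB1 IP libraries lay above all 4 others. The 5 activators added up to 332 and 387 CPM in IgG, 316 and 383 in input, and 404 and 394 in CPEB1 IP, so CPEB1 IP was above the others by a small margin. The base assembly chaperones were also above both other groups, at 106 and 99.3 CPM against 95.8 and 95.7 in input and 64.6 and 78.7 in IgG. The non-ATPase base subunits, at 850 and 920 CPM in CPEB1 IP, overlapped input (879 and 874) and were above IgG (608 and 635). The inducible or thymic beta subunits had the highest sum in input, at 56.2 and 46.3 CPM, against 37.2 and 32.8 in IgG and 35.0 and 42.1 in CPEB1 IP. With 2 libraries a group, the smallest p of an exact permutation test on such sums is over 0.05, and none was made.

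**Figure D3:**
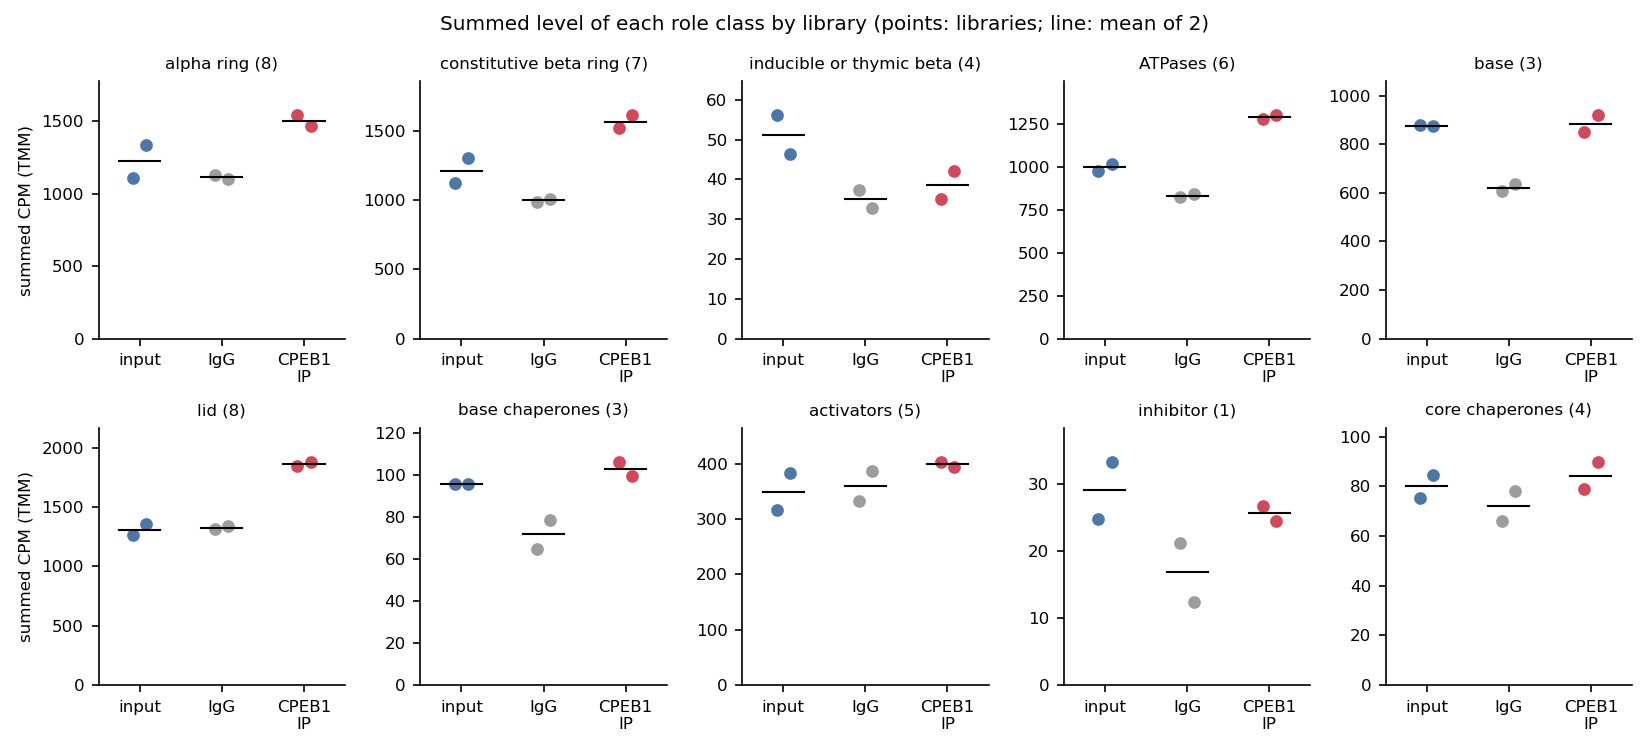
Summed CPM (TMM-normalized) of each role class in the 6 libraries, with the number of genes in brackets; base stands for the non-ATPase subunits of the base, base and core chaperones for the assembly chaperones. Points are libraries and lines the mean of 2, and each y axis starts at 0 with its own scale; the lid, at 1845 and 1885 in CPEB1 IP, and the ATPases, at 1278 and 1303, lie above both other groups.

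The study defined CPEB1-associated transcripts by an FPKM ratio as well as a test. The rule used here asked that FPKM plus 1 be over 2 times the IgG value in both experiments and that the count test call the gene higher: 23 of the 46 genes tested met it, against 12.1% of the 12124. They were 4 genes of the alpha ring, 6 of the constitutive beta ring, 5 ATPases, 2 other base subunits and 6 of the lid. Psmd14 had the highest ratio in experiment 1, 3.19. Psmc4 had the highest in experiment 2, 3.49, and 2.54 in experiment 1. Psmb2 passed the count test but missed the ratio, at 1.91 and 2.90. Of the other genes of like input level, 37.6% met the rule, and of the 22 genes of the list in that range 12 did.

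This rule depends on the total by which FPKM was scaled, and the IgG libraries were deposited in tables of their own. The deposited FPKM divides by a total of which counts on genes were 71.1% and 79.8% in input, 69.9% and 69.5% in CPEB1 IP, and 39.5% and 39.1% in IgG. IgG values are therefore lower on this scale for every gene. The median log2 ratio of FPKM plus 1 over all genes tested was 0.54 and 0.61 in the experiments, and 1.14 and 1.24 over the list. With FPKM recomputed from TMM library sizes the median was 0.04 and 0.04 over all genes and 0.58 and 0.53 over the list, and 0 genes of the list met the rule. Thus the list lay above the median of all genes on both scales, but only on the deposited scale did most of its genes exceed a ratio of 2, with 30 and 35 of 46 against 1 and 1. Of all 12124 genes tested, 2557 and 3032 exceeded it on the deposited scale and 315 and 365 with TMM, so 1 of 46 is about the share of all genes. The count test used TMM.

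**Figure D4:**
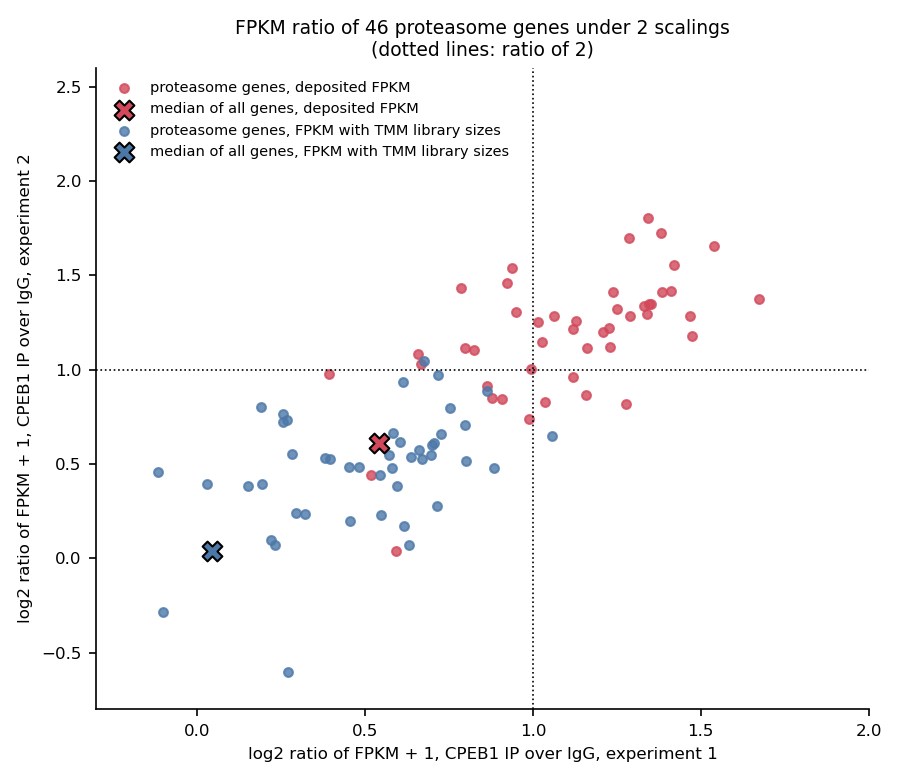
Log2 ratio of FPKM plus 1, CPEB1 IP over IgG, in experiment 1 (x axis) and experiment 2 (y axis) for the 46 proteasome genes tested, with the deposited FPKM (red) and with FPKM recomputed from TMM library sizes (blue). Crosses are the median of all genes tested and dotted lines a ratio of 2; the red points shift up and right of the blue ones, and so does the cross, from 0.04 and 0.04 to 0.54 and 0.61.

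Against input, genes of both core rings, the ATPases and the lid were higher in CPEB1 IP, none of the 3 other base subunits was, and the inducible subunit Psmb9 was lower. Of 48 genes tested 18 were higher (37.5%) and 1 was lower, against 17.0% and 15.8% of the 12171 genes tested, with a median log2 fold change of 0.35 (-0.0038 over all genes). They were 4 genes each of the alpha ring, the constitutive beta ring and the ATPases, 5 of the lid and 1 activator. At an unadjusted p under 0.05 there were 24 higher and 3 lower, against 22.2% and 21.2% of all genes tested. DESeq2 called 11 higher and 0 lower, against 10.1% and 9.78% of the genes tested by edgeR. At an input level of 16.5 to 59.7 FPKM 24.6% of 1809 other genes and 9 of 22 genes of the list were higher. The comparison shares its CPEB1 IP libraries with the one against IgG, so calls in both are not independent. Cell type markers moved too: 6 of 12 tested markers of other cells were higher in CPEB1 IP than in input (Dcn 1.97, Cdh5 2.37 and Lyz2 2.30 among them). Acta2 (-1.07) and Rgs5 (-0.90) were the 2 lower, and the median over the 12 was 0.89. Of the 9 satellite cell markers, 4 were lower (Pax7 -1.84, Cdh15 -2.22, Calcr -1.57, Chodl -0.84) and Myod1 was higher by 1.31. Markers also moved in IgG against input, where 7 of 14 of other cells were higher and 2 lower, with a median of 0.88. Of the satellite cell markers 6 were lower there (Pax7 -1.98 and Cdh15 -3.08 among them) and Myod1 was higher by 0.93. Over all genes tested, 21.4% were higher and 19.4% lower in IgG than in input. In CPEB1 IP against IgG, 5 of the 9 satellite cell markers were higher and 0 lower, with a median of 0.26. Of 13 tested markers of other cells 3 were higher and 2 lower, with a median of 0.18. Over all genes tested 14.7% were higher and 18.7% lower in that comparison. The part of these shifts in the proteasome values was not tested.

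Psmd11, a lid scaffold at chr11:80428615-80473248 on the plus strand, changed most, at 284 and 309 CPM in input and 515 and 520 in CPEB1 IP (log2 fold change 0.86 ± 0.12, edgeR adjusted p = 0.00025). Psmd8, chr7:29174188-29180701 on the minus strand, was at 207 and 202 CPM in input and 355 and 351 in CPEB1 IP (0.84 ± 0.13, edgeR adjusted p = 0.00034). Psmd7 and Psmc2 followed at 0.73 ± 0.13 and 0.67 ± 0.15, and then Psmb4 at 0.58 ± 0.13. Psmd8 is the lid gene with the smallest change against IgG, and its level in IgG, 284 and 298 CPM, was also above input. Psmb9, which overlaps exons of Tap1, was at 7.06 and 6.61 CPM in input and 2.08 and 2.27 in CPEB1 IP. Its log2 fold change was -1.57 ± 0.47 (edgeR adjusted p = 0.021) from 23 and 21 counts in input and 5 and 11 in CPEB1 IP. DESeq2 after the low count filter gave an adjusted p of 0.10, and Psmb9 was not called without either CPEB1 IP library or without input replicate 1 (adjusted p 0.13, 0.15 and 0.067). Psmb8 and Psmb10 had -0.30 ± 0.25 and -0.18 ± 0.27.

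The genes that interferon induces beside the inducible subunits were given for comparison. Of 6 such genes (Tap1, Tap2, Tapbp, B2m, Irf1 and Nlrc5), 4 were lower in IgG than in input on the log2 scale (Tap1 -1.44, Tap2 -1.74, Tapbp -1.13, Irf1 -1.36). B2m was higher by 0.37. Over all genes tested 19.4% were lower and 21.4% higher. Against IgG, CPEB1 IP was higher for Tapbp (0.76) and Irf1 (0.48), with none lower. In CPEB1 IP against input 3 were lower and 1 higher, against 15.8% and 17.0% of all genes tested. Tap1 by -1.10, Tap2 by -1.05 and Irf1 by -0.76 were lower, and B2m was higher by 0.50. Tap1 shares exon bases with Psmb9. Psme4 was the only activator higher, at 85.9 and 100 CPM in input and 123 and 139 in CPEB1 IP (0.55 ± 0.15, edgeR adjusted p = 0.012), and was not called without CPEB1 IP replicate 1 (0.0582) or replicate 2 (0.290). Psma4 had the lowest value of the alpha ring, at 140 and 150 CPM in input and 112 and 118 in CPEB1 IP (-0.28 ± 0.14, edgeR adjusted p = 0.135). Psmc3ip, no subunit, was at 8.90 and 5.67 CPM in input and 3.75 and 2.27 in CPEB1 IP (-1.30 ± 0.48, edgeR adjusted p = 0.054).

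These calls were less stable than those against IgG. The median log2 fold change of the list was 0.34 without CPEB1 IP replicate 1 and 0.29 without CPEB1 IP replicate 2. It was 0.21 without input replicate 1 and 0.42 without input replicate 2. Over all genes tested the median lay between -0.05 and -0.0005 in these fits. Without either CPEB1 IP library fewer genes were called higher over all genes tested as well. Psmd8 and Psmd11 were the 2 genes called each time and under every other setting. The input libraries differed from each other: the list added up to 5926 CPM in replicate 1 and 6547 in replicate 2, against 7689 and 7844 in CPEB1 IP. With the FPKM library totals in place of TMM, 4 genes were higher and 5 lower, as the median of all genes moved to -0.19. Of all 12171 genes tested, 1235 were then higher and 2744 lower.

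In IgG against input, 11 of 48 genes tested were lower (22.9%) and 2 higher, against 19.4% and 21.4% of the 12980 genes tested. The share of lower genes was thus near that of all genes, and the share of higher genes below it. The median log2 fold change was -0.34, against 0.03 over all genes. Other genes with an input level in the middle range of the list had a median of -0.33, close to the -0.31 of the 22 genes of the list in that range, and 41.3% of them were lower, against 6 of the 22. At an unadjusted p under 0.05, 16 genes of the list were lower and 3 higher, against 23.1% and 25.4% of all genes. DESeq2 called 5 lower and 0 higher, against 12.3% and 6.23% of the genes tested by edgeR. Psmg1, an assembly chaperone of the alpha ring, was at 28.5 and 28.7 CPM in input and 13.7 and 17.5 in IgG (-0.87 ± 0.34, edgeR adjusted p = 0.036), Psmd2 fell by 0.85 ± 0.15 and Psma4 by 0.83 ± 0.19 on the log2 scale. Psmd14 and Psmc3 fell by 0.77 ± 0.20 and 0.63 ± 0.16. The 2 genes that were higher in IgG were Psme4, at 85.9 and 100 CPM in input and 133 and 171 in IgG (0.71 ± 0.18, edgeR adjusted p = 0.0016), and Psmd8, at 207 and 202 CPM in input and 284 and 298 in IgG (0.50 ± 0.15, edgeR adjusted p = 0.00705). With the FPKM library totals the values of both turned to -0.18 and -0.37, since the median of all genes then moved to -0.85. Without IgG replicate 2 the count fell from 11 to 2 lower and from 2 to 0 higher, without IgG replicate 1 it was 4 and 2, and Psmd2 was the 1 gene lower each time.

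Side by side, the 3 comparisons place the genes differently. Psmd2 was at 325 and 358 CPM in input, 188 and 192 in IgG and 283 and 306 in CPEB1 IP, so it was higher than IgG and not higher than input. Psmd14, with 104 and 136 CPM in input, was also above IgG and overlapped input in CPEB1 IP. Psmd11 was at 390 and 359 CPM in IgG, between input and CPEB1 IP. Psmb6 was at 282 and 271 CPM in input, above IgG and below CPEB1 IP. Psme4 was above input in both precipitates, which overlapped. Some genes higher than IgG were also higher than input, Psmb6 and Psmd11 among them. Others were not called against input, among them Psma2, Psmc3, Psmd2 and Psmd14. How often genes outside the list were called in both comparisons was not counted. Psmc6, Psmd8 and Psme4 were higher than input only.

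CPEs were about as frequent in genes of the list that were higher in CPEB1 IP as in the others. Of the 26 genes higher, 10 (38.5%) held a CPE, against 9 of the 20 not called (45.0%), a description with no test. The median log2 fold change was 0.43 over the 19 tested genes with a CPE (range -0.39 to 0.72) and 0.48 over the 27 without (range 0.09 to 0.82). Psmg3 and Psme4, the 2 genes below 0, both held a CPE in an annotated 3′ UTR. Psmb6, Psmc4, Psmd14 and Psmc3, the genes with the largest changes, held neither motif in any annotated 3′ UTR, and Psmd7, next in size among the lid, held both. Over all genes tested the medians were -0.02 with a CPE and 0.14 without. Across the 46 genes Spearman's rho with the log2 fold change was -0.19 for the length of the longest 3′ UTR and -0.24 for the summed exon length, and these are values across genes in shared libraries.

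**Figure D5:**
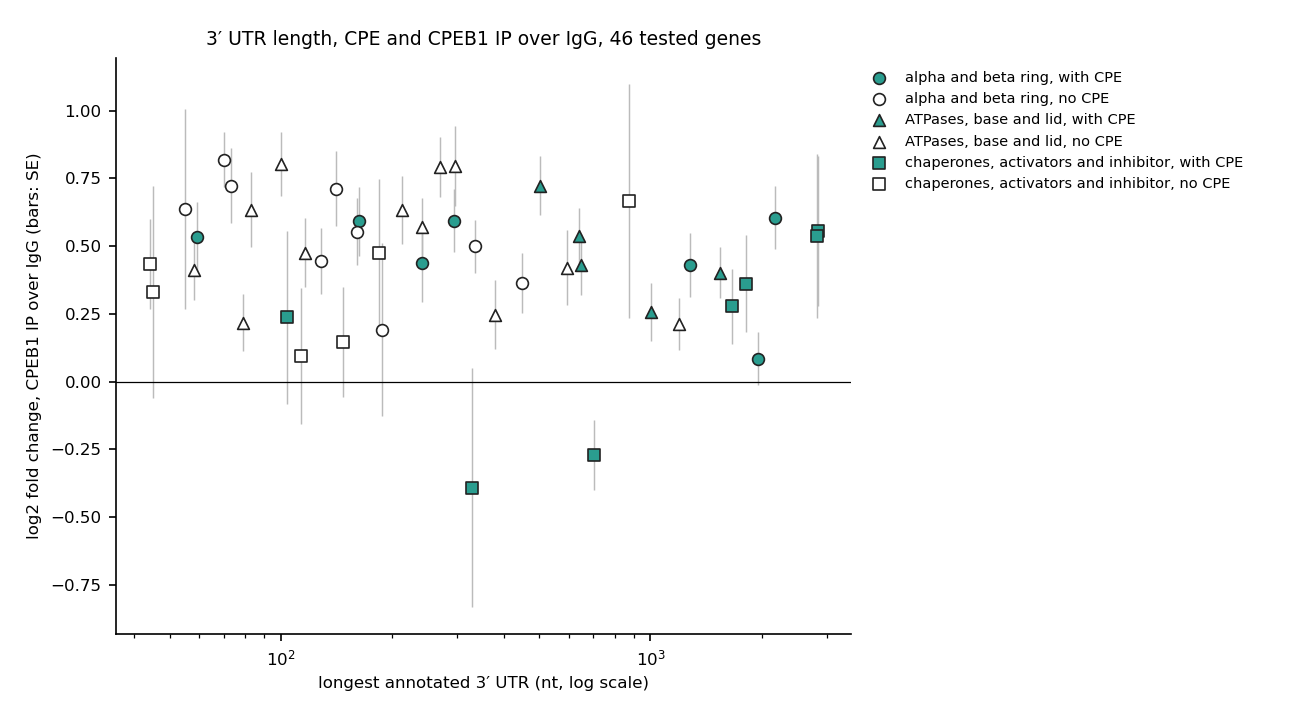
CPEB1 IP against IgG as log2 fold change with SE bars (y axis) against the longest annotated 3′ UTR in nt on a log scale (x axis) for the 46 proteasome genes tested; symbols give the role and fill a CPE (TTTTAT or TTTTAAT). Filled symbols run from -0.39 to 0.72 and open symbols from 0.09 to 0.82, with medians of 0.43 and 0.48, and both values below 0 are filled.

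Of 21 other genes of the proteasome pathway examined, such as receptors, deubiquitinases and shuttle factors, 4 were higher and 1 lower in CPEB1 IP than in IgG, with a median log2 fold change of 0.20, a count of higher genes near the 14.7% of all genes tested. The largest change was that of Nfe2l2, a transcription factor of the oxidative stress response, at 1.10 (edgeR adjusted p = 3.1e-07). Vcp, the ATPase that pulls ubiquitinated proteins out of complexes, changed by 0.63, the proteasome-bound thioredoxin Txnl1 by 0.51 and the ubiquitin receptor Adrm1 by 0.44. Ecpas, a proteasome adaptor, was lower by -0.37 (edgeR adjusted p = 0.017). Nfe2l1, the transcription factor that drives proteasome genes, had 0.36 (edgeR adjusted p = 0.058), and Pomp, the chaperone of the beta ring, had 0.19 (edgeR adjusted p = 0.31). Against input 9 of the 21 were higher and 2 lower, against 17.0% and 15.8% of all genes tested. In IgG against input 3 were higher and 4 lower, against 21.4% and 19.4% of all genes tested.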

How the data were processed

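RIP-seq gave 6 libraries in 3 groups of 2, taken from the sample labels. The authors mapped reads to mm10 with HISAT2, counted them with featureCounts and deposited raw counts per gene, together with FPKM that they computed from the count, the summed exon length and a library total, which back-calculation from the values showed to be larger than the counts on genes. Strand setting and treatment of multi-mapping reads are not given in the sources used here. No sample column was left unused.

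The proteasome genes and the other lists were chosen with earlier results of these data known. Counts of all genes were tested 2 groups at a time in R 4.3.3 with edgeR 4.0.16 (filterByExpr, TMM, quasi-likelihood test, Benjamini-Hochberg adjustment over all genes tested, threshold 0.05). SE is the log2 fold change divided by the square root of F. CPM of single genes used TMM library sizes over all 6 libraries. The FPKM rule followed the study's methods, with edgeR in place of DESeq2 and a pseudocount of 1. Alternatives were DESeq2 1.42.0 on all genes, other scalings, no filter, a replicate block, all libraries in 1 fit and each library left out; DESeq2 after the low count filter was added after the data were seen. Gene models were GENCODE M21, and copies (at least 90% identity over 200 bases) were searched with BLAST 2.17.0. Python 3.11.15, pandas 2.3.3 and matplotlib 3.10.9 did the rest. Tested on simulated counts with 200 changed genes, the test found 87.5% of those with a true log2 difference of 2 when CPEB1 IP was set against IgG, 90.5% when it was set against input, and 85.5% for IgG set against input. Counts on genes were 1284716 to 4941653 a library, so precision leans on the spread that edgeR shares across genes.

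Genes named are, in each class, those with the highest and lowest change of CPEB1 IP relative to IgG and the highest input FPKM, the 5 largest in each direction among those called in each comparison, the catalytic pairs, Psmc3ip and Psme2b. Others were chosen after their values were seen. The study pairs CPEB1 IP and IgG by experiment. Deviations from the group mean in libraries of equal number correlated at -0.01 between CPEB1 IP and IgG, -0.02 between CPEB1 IP and input, and 0.03 between IgG and input (14276 genes).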

Additional observations from a re-analysis of the deposited data

How the results depend on the processing

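Scaling by the FPKM library totals moved the median log2 fold change of all genes to 0.80 when CPEB1 IP was set against IgG, -0.19 when set against input, and -0.85 for IgG set against input. It gave 45 proteasome genes higher than IgG, against 7149 of all 12124 genes tested. It gave 4 higher and 5 lower than input, against 1235 and 2744 of 12171. It also gave 44 lower and 0 higher in IgG than in input, against 7180 and 1108 of 12980. It reversed Psme4 against IgG (0.54) and, in IgG against input, Psma3 (-0.74), Psmc5 (-0.85), Psmc6 (-0.87), Psmd8 (-0.37), Psmd11 (-0.54) and Psme4 (-0.18). The median of the list relative to all genes stayed at 0.47, 0.34 and -0.38. FPKM recomputed with TMM left 0 genes meeting the FPKM rule, and the other settings 18 to 26.

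DESeq2 on all genes found 11 higher and 0 lower in CPEB1 IP than input, and 5 lower and 0 higher in IgG than input. After the low count filter it found 14 higher and 0 lower in CPEB1 IP than input, against 1475 and 1316 of all 12171 genes tested. For IgG against input it then found 5 lower and 2 higher, against 1596 and 1695 of 12980. Without a filter on low counts 20 were lower and 0 higher in IgG than input, against 3066 and 4109 of all 40052 genes tested. Against IgG the number higher was 19 to 37 with other tools, filters and RLE. The causes were not tested. Leaving out each library gave 18 to 26 higher and 0 to 1 lower against IgG, 3 to 27 higher and 0 to 2 lower against input, and 2 to 12 lower and 0 to 3 higher for IgG against input. A lone library was assumed to vary like the other groups.

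With the replicate number as a block, 26 genes were higher than IgG, 15 were higher than input (Psmb5 and Psmc6 among those not called, adjusted p 0.057 and 0.080), and 13 were lower and 3 higher in IgG than input. CPEs were found in 17 to 24 genes with other motifs or 3′ UTRs.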
